A study of Mus musculus with 3 samples.

Results

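The machinery that degrades mRNA and matures microRNAs was examined as 49 genes named by their complex, of 22706 genes in the deposited files. Of these 22706 genes, 11463 passed a filter on level and transcript length, and all 49 members were among them. The members fall into 6 groups. They are the microprocessor and Dicer (8 genes), the Argonaute and GW182 proteins (5), the deadenylases (12), decapping and 5′ decay (11), the exosome (8) and nonsense-mediated decay (5). Membership rests on gene names and no measured value entered the rule. The list was drawn up with earlier results of these data known.

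An mRNA usually dies from its tail inwards. The deadenylases Pan2–Pan3 and CCR4–NOT shorten the poly(A) tail, and the exosome can then cut the body back from the 3′ end. Alternatively the LSM ring activates decapping, the Dcp2 enzyme removes the cap, and Xrn1 cuts the body back from the 5′ end. MicroRNAs enter this pathway after Drosha and Dgcr8 have cut a hairpin from a primary transcript, Xpo5 has exported it, Dicer1 has diced it and an Argonaute protein has loaded it. KSRP, the product of Khsrp, is known to bring the exosome and the deadenylase Parn to mRNAs with AU-rich elements, and to help Drosha and Dicer1 with a set of microRNA precursors, which ties these genes to a hairpin against KSRP.

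There were 3 groups with 1 library each, all from C2C12, a mouse line of mesenchymal precursors with myoblast character that can be steered to muscle or bone. One was mock-transfected and kept in growth medium with 20% fetal serum. One carries the label shKSRP, a short hairpin RNA against Khsrp, and was kept in the same medium. One was mock-transfected and is labelled DM + BMP2, where DM is a medium with 2% horse serum and BMP2, a bone morphogenetic protein, is stated as 100 to 300 ng/ml for the study. The hairpin's sequence and vector, and whether the cells were a pool or a clone, are not stated in the labels. Medium and BMP2 changed together in the last library, so their parts cannot be told apart. Since each group is a single library, differences could not be set against a spread between replicates, and no test was made.

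Levels are FPKM, fragments scaled to transcript length and to library depth, summed over a gene's transcripts. The ± is the half-width of the authors' 95% interval and covers counting and assignment error only. A ratio is log2 of FPKM + 1 in a library over FPKM + 1 in another, which understates differences of low genes, and a member was called higher or lower where it reached 1 in size. Each library was assembled separately, so fragments of a gene can sit on short assembled transcripts in one library and not in another. A short transcript yields a larger FPKM for the same fragments. A second gene value was therefore set beside the first, called the fixed-length value below. It takes all fragments of the gene's transcripts, and of assembled transcripts without a gene that overlap its exons. Their sum was divided by the gene's longest RefSeq transcript. Fragments outside the gene's RefSeq exons are counted too, so a transcript that runs past these exons raises the value. That way of counting was chosen after the data had been seen. Where 3 values follow each other, they are mock, the library labelled shKSRP and the BMP2 library, in that order, and of a pair of ratios to mock the library labelled shKSRP comes first. Values given under the shKSRP label are those of the library labelled shKSRP. The genes Dgcr8, Ddx5, Xpo5, Cnot3, Edc4, Lsm2, Exosc4 and Smg1, 8 of the 49, lie at a locus that holds a further gene, so how fragments were divided there is uncertain.

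The interval widths correspond to 54.6 to 62.9 M (mega) fragments per library. Khsrp itself stood at 31.4 ± 0.85 FPKM in mock, 28.4 ± 0.64 under the shKSRP label and 27.1 ± 0.67 in the BMP2 library, ratios of -0.14 and -0.20. Its level in the library labelled shKSRP was thus close to mock, and was no lower than in the BMP2 library, which had no hairpin by its label. The 7 myoblast markers did not move one way. Their ratios ran from -1.63 to 2.50 in the library labelled shKSRP, with Myf5 called higher and Msc lower, and from -2.71 to 0.22 in the BMP2 library, with Cdh15 and Msc lower. Between those libraries Myf5, Cdh15 and Chrna1 were higher in the library labelled shKSRP. Myod1 read 30.7, 34.8 and 17.3 FPKM. How far this touches the members was not tested. The 5 markers of blood and endothelium with a value read at most 0.062 FPKM and Epcam was at 0 in all 3 libraries. Krt14, a keratin, read 114, 18.4 and 264, which was 99.5% to 99.9% of the summed level of 4 epithelial markers. Tubb3, a neuronal tubulin, read 98.0, 9.83 and 92.8, or 90.5% to 99.8% of 4 nerve and glia markers. Of the 2 such markers compared, Tubb3 stood at -3.19 and the other at 0.85 in the library labelled shKSRP. Fabp4, an adipocyte marker, read 0.61, 0.53 and 5.10. In bulk RNA, fewer cells of a type and less RNA per cell cannot be told apart.

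Among the 49 genes are hosts of microRNA hairpins, and the microprocessor gene Dgcr8 is the best known of them, since its own mRNA folds into hairpins that the microprocessor can cut. A RefSeq table (GRCm38.p6) places 7 hairpins inside 6 members, with 13 mature sequences and 13 different seeds, so no seed is shared. Dgcr8 holds 2 of the 7, Mir1306 in a coding exon at chr16:18284239-18284317 (minus strand) and the hairpin of miR-3618 in an untranslated exon. They are shown because Dgcr8 is the member with the most unusual values below. In the hairpin the capitals mark the mature arms, and in the mature sequences they mark the seed, bases 2 to 8.
Mir1306 hairpin: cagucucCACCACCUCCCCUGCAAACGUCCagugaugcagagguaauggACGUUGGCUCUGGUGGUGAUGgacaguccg
miR-1306-5p: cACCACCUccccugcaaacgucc
miR-1306-3p: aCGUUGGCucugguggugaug
miR-3618-5p: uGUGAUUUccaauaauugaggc
miR-3618-3p: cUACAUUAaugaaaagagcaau
The libraries hold polyadenylated RNA, so they give the host genes and not the mature microRNAs. The other hosts are Ddx5, Xpo5, Cnot1, Cnot3 and Tnrc6b.

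Against mock, the library labelled shKSRP had 6 of 49 members called higher (12.2%, against 11% of all compared genes) and 8 called lower (16.3%, against 12.9%). The BMP2 library had 4 called higher (8.16%, against 9.21%) and 8 called lower (16.3%, against 8.95%). In the library labelled shKSRP both shares were near those of all genes, and in the BMP2 library the lower share was above it. The median ratio of the members was 0.12 and -0.02, beside -0.02 and 0.03 over all genes. By its median ratio the list thus stood close to all genes. All exosome and LSM members lay below 0 in both comparisons. The microprocessor, Argonaute, deadenylase and nonsense-mediated decay groups each had members on both sides of 0. Both comparisons use the same mock library, so a value particular to mock appears in each. The plot of log2 ratios by complex shows the exosome and LSM genes below 0. Outside them, Tarbp2 and Pan2 were also called lower in the library labelled shKSRP, and Drosha in the BMP2 library.

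**Figure D1:**
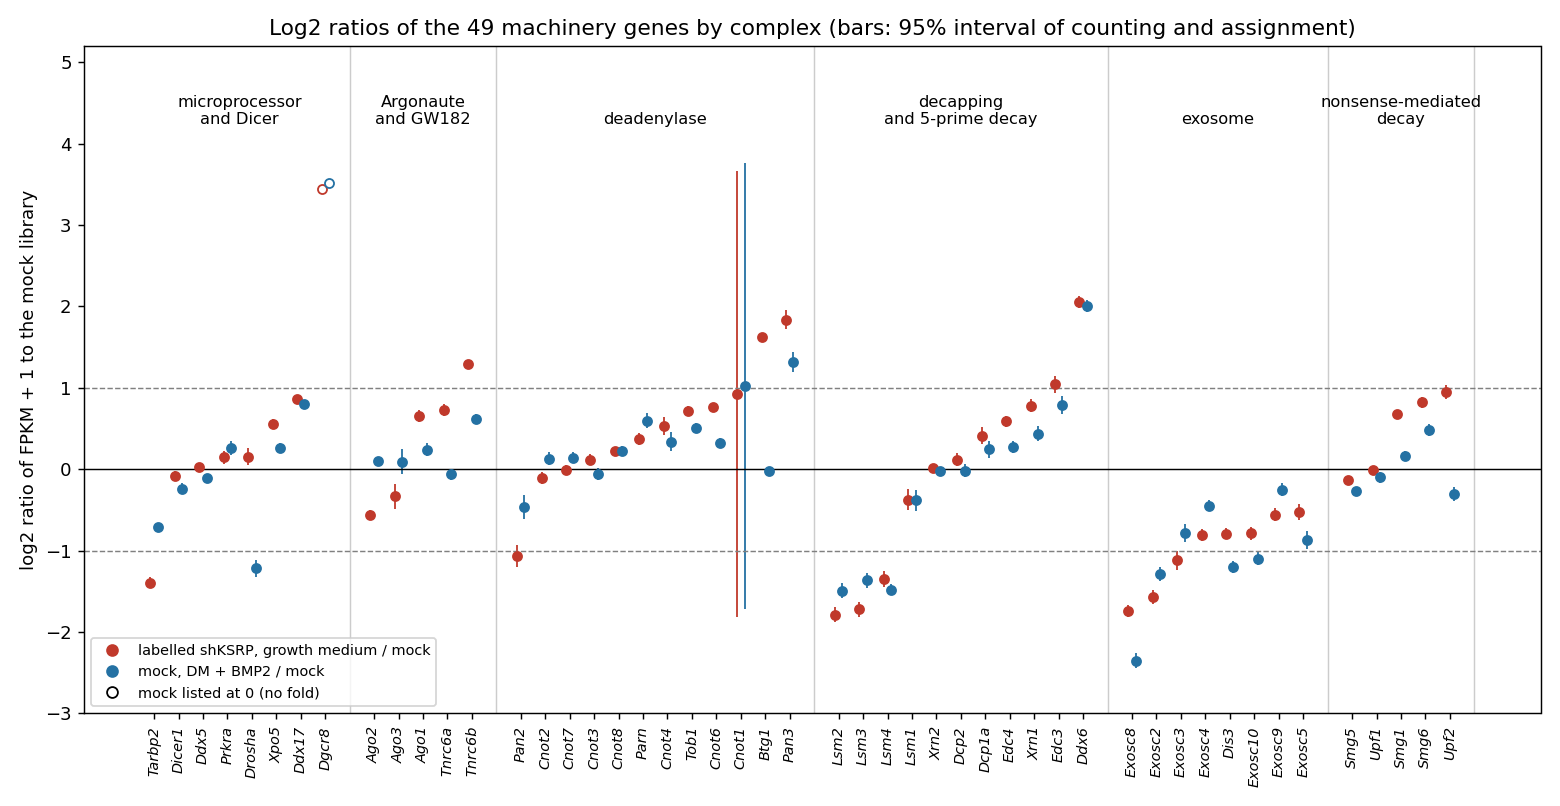
Log2 ratio of FPKM + 1 to the mock library (vertical axis) for the 49 genes, ordered by complex, in the library labelled shKSRP (red) and in the BMP2 library (blue). Bars are 95% intervals of counting and assignment, dashed lines mark ratios of -1 and 1, and open points mark Dgcr8, listed at 0 in mock. All 8 exosome genes lie under 0 in both comparisons.

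The exosome is a barrel of core proteins with the nucleases Dis3 and Exosc10 attached, and it chews RNA from the 3′ end. All 8 exosome members were lower than mock in both other libraries. Their summed level was 318 FPKM in mock, 148 under the shKSRP label and 145 in the BMP2 library. Their median ratio was -0.80 and -0.98, where 50.9% and 47.2% of all compared genes lay below 0. In the library labelled shKSRP 3 were called lower (37.5%, against 12.9% of all genes). In the BMP2 library 4 were (50%, against 8.95%), and Exosc2 and Exosc8 were called in both. The count of 8 of 8 below mock held with the fixed-length value, with a trend over transcript length removed, and with the median of all genes set to 0. When FPKM in each library was scaled to the same sum, it stayed 8 of 8 in the library labelled shKSRP and became 7 of 8 in the BMP2 library. With that scaling 2 were called lower in each (25%), against 9.04% and 6.82% of all genes.

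Exosc8 (chr3:54532601-54539286 in mm9, minus strand, 11 exons), a member of the barrel's ring, had the largest ratio of the group. It read 90.8 ± 2.78 FPKM in mock, 26.5 ± 1.15 under the shKSRP label and 17.0 ± 0.99 in the BMP2 library, 29.1% and 18.7% of mock. Mock stood far above both other libraries, and these also differed from each other beyond their intervals. Part of the mock value, 45.7 FPKM, lay on an assembled transcript of 849 nt with 5 exons. The fixed-length values were 74.9, 26.2 and 16.8, ratios of -1.48 and -2.09. With RefSeq transcripts only, the ratios were -0.75 and -1.36, so the call in the library labelled shKSRP ended and that in the BMP2 library did not.

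Exosc2 (chr2:31526257-31536827 in mm9, 9 exons), an RNA-binding cap protein of the barrel, had fragments on RefSeq transcripts alone in all 3 libraries. It read 38.3 ± 1.27 FPKM in mock, 12.2 ± 0.68 under the shKSRP label and 15.1 ± 0.81 in the BMP2 library. The ratios were -1.57 and -1.29, and both calls held in every alternative tried, between -1.64 and -1.05. Exosc3, another cap protein, read 33.6 ± 1.78, 14.9 ± 0.98 and 19.1 ± 1.17 FPKM, ratios of -1.12 and -0.79. Its call in the library labelled shKSRP ended when the length trend was removed, at -0.63.

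The nucleases were lower as well, and more so in the BMP2 library. Dis3, the processive 3′ exonuclease of the complex, read 17.1 ± 0.53 FPKM in mock, 9.47 ± 0.39 under the shKSRP label and 6.86 ± 0.35 in the BMP2 library. Its ratios were -0.79 and -1.20. In mock, 6.08 FPKM lay on an assembled transcript of 8939 nt, longer than the RefSeq form of 3722 nt, so the fixed-length ratios were larger in size, -1.08 and -1.76. With RefSeq transcripts only, the BMP2 ratio was -0.61. Exosc10, the distributive nuclease of the nucleus, read 39.2 ± 1.71, 22.3 ± 0.94 and 17.8 ± 0.65 FPKM, ratios of -0.79 and -1.10. Here 20.8 FPKM of the mock value lay on a transcript of 926 nt, and the fixed-length ratios were only -0.38 and -0.49, which ended the call.

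The other ring subunits, Exosc4, Exosc5 and Exosc9, were not called. Exosc4 read 39.0 ± 1.21, 21.9 ± 0.86 and 28.4 ± 1.05 FPKM in mock, the library labelled shKSRP and the BMP2 library, ratios of -0.81 and -0.45, at a locus shared with another gene. Exosc5 read 32.0 ± 1.5, 22.0 ± 1.19 and 17.1 ± 1.11, ratios of -0.52 and -0.87. Exosc9 read 28.0 ± 1.09, 18.7 ± 0.85 and 23.3 ± 1.01, and its BMP2 ratio of -0.25 was the smallest of the group. The annotated exons of Exosc9 overlap those of Ccna2, a cyclin gene that read 77.3, 21.6 and 22.9 FPKM, and without strand their reads cannot be told apart.

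**Figure D2:**
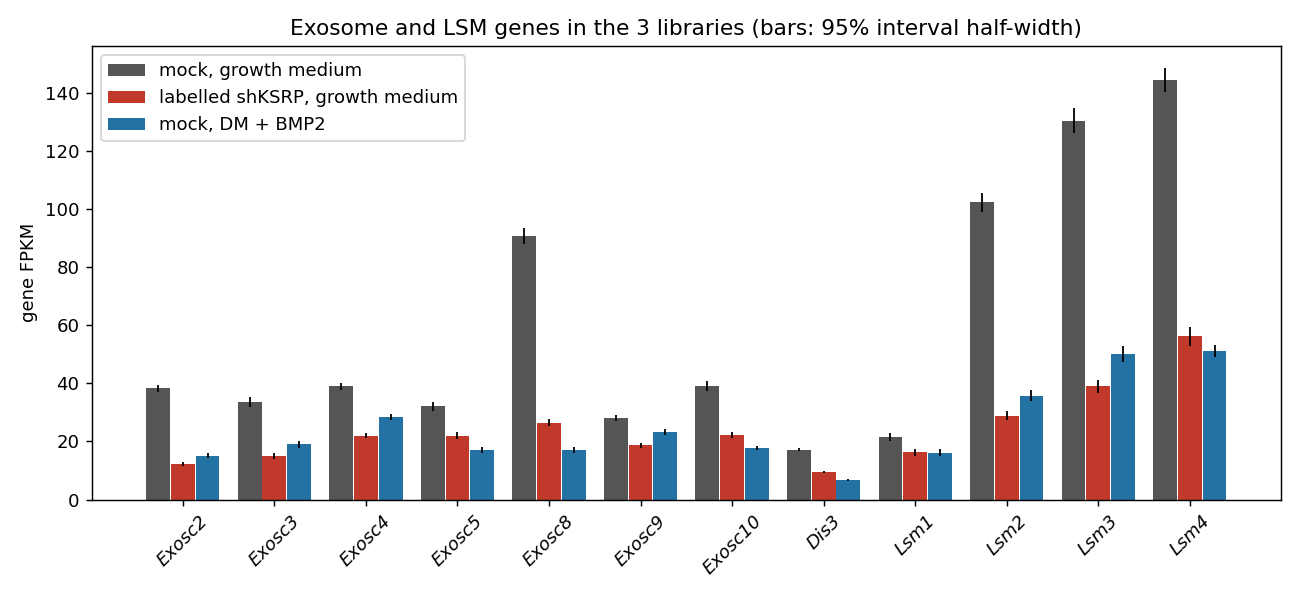
Gene FPKM (vertical axis) of the 8 exosome and 4 LSM genes in mock (grey), the library labelled shKSRP (red) and the BMP2 library (blue), with bars of the 95% interval. Mock is the highest library for each of the 12 genes, and the library that is lowest differs from gene to gene.

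The LSM ring, a doughnut of small proteins on oligoadenylated 3′ ends, activates decapping as Lsm1 to Lsm7 and, with a different partner, serves in splicing. The 4 LSM members were lower than mock in both comparisons, with median ratios of -1.53 and -1.42. This count of 4 held under each scaling, with the fixed-length value and with the length trend removed. Lsm2 (chr17:35118799-35122838 in mm9) read 102 ± 3.33 FPKM in mock, 28.9 ± 1.67 under the shKSRP label and 35.7 ± 1.93 in the BMP2 library, at a locus shared with another gene. Lsm3 (chr6:91466029-91472614) read 130.4 ± 4.15, 38.9 ± 2.17 and 50.1 ± 2.78. Lsm4 (chr8:73197130-73202651) read 144 ± 4.25, 56.1 ± 3.40 and 51.1 ± 2.03. For these 3 genes both other libraries stood at 28.3% to 38.9% of mock. Their ratios were -1.79, -1.72 and -1.35 in the library labelled shKSRP and -1.49, -1.36 and -1.48 in the BMP2 library.

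Lsm1 is the subunit that sets the cytoplasmic decapping ring apart from the nuclear ring, while Lsm2, Lsm3 and Lsm4 belong to both. It read 21.4 ± 1.38 FPKM in mock, 16.3 ± 1.14 under the shKSRP label and 16.2 ± 1.11 in the BMP2 library. The ratios of -0.37 and -0.38 were outside their intervals and far from a call. Per length, Lsm1 was thus the lowest of the 4 in every library. Removing the length trend moved Lsm4 to -0.84 in the library labelled shKSRP and Lsm3 to -0.93 in the BMP2 library, which ended those calls, while both calls of Lsm2 held, at -1.27 and -1.14.

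The sequence ahead of 3 of these genes is shown, since a pair of them have a divergent neighbour that did not share their ratios and Exosc2 has the steadiest values. Exosc8 stands head to head with Alg5, a glycosylation enzyme gene, and Lsm3 with Xpc, a DNA repair gene. Only the stretch outside every annotated exon is printed, from the RefSeq promoter table in GRCm38.p6, where these coordinates apply, and each reads in the direction of the named gene. Capitals mark CCAAT or its reverse complement ATTGG.
Exosc8 (chr3:54735394-54735538): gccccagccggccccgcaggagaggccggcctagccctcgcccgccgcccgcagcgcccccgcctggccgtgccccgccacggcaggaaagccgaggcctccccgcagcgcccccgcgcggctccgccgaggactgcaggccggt
Lsm3 (chr6:91515889-91515927): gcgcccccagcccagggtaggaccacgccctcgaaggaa
Exosc2 (chr2:31670465-31670714): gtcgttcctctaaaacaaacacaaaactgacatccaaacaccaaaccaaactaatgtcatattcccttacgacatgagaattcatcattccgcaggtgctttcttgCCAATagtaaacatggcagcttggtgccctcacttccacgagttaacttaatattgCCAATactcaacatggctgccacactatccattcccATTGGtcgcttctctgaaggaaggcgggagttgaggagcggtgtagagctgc
The stretch between Exosc8 and Alg5 is 145 bases long, 83.5% of them G or C, and that between Lsm3 and Xpc is 39. Alg5 read 44.4 ± 1.44 FPKM in mock, 47.5 ± 1.42 under the shKSRP label and 40.2 ± 1.39 in the BMP2 library, ratios of 0.10 and -0.14 where Exosc8 had -1.74 and -2.35. Xpc read 3.93 ± 0.26, 6.48 ± 0.32 and 4.86 ± 0.30 FPKM, ratios of 0.60 and 0.25 where Lsm3 had -1.72 and -1.36. The pairs were picked because the neighbour did not follow the member, so they say nothing of the neighbours of other members.

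The Exosc2 stretch holds CCAAT or ATTGG 3 times, and the other stretches hold none. Over the 250 bases before the start, CCAAT was found on either strand in 18 of the 40 members that the table lists, or 37.3% of their 51 promoters. Among the 32851 promoters listed, 33.8% hold it, so the share among members is near that of all. CACGTG, the E-box, was found in 7.84% of member promoters and 6.02% of all, and TATAAA, the TATA box, in 7.84% and 12.4%. The ETS motif CCGGAAGT was found in 1 member, or 1.96% of member promoters and 2.88% of all, and the NRF1 motif in 2 members, or 3.92% and 0.782%. All were searched on both strands. These are matches of letters and not binding sites.

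Transcript length moved with the ratios. Across the 49 members, Spearman's rho between the longest RefSeq transcript and the ratio was 0.60 under the shKSRP label and 0.50 in the BMP2 library, against 0.37 and 0.27 across all genes. Members share libraries and annotation, so these are descriptions. Exosome transcripts run from 1031 to 3722 nt and LSM transcripts from 631 to 2360 nt, while those of nonsense-mediated decay run from 4447 to 15553 nt. Among all genes of 300 to 1000 nt, where Lsm2, Lsm3 and Lsm4 fall, the median ratio was -0.55 and -0.43 and 26.5% and 15.9% were called lower. Among those of 1000 to 2000 nt, the median ratio was -0.37 and -0.15 and 19.8% and 12.1% were called lower. With the trend removed, the exosome median was -0.69 and -0.86 and the LSM median -0.99 and -1.04. Removed from the fixed-length value, it left the exosome median at -0.59 and -0.57 and the LSM median at -1.11 and -0.99. Both medians thus stayed below 0.

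**Figure D3:**
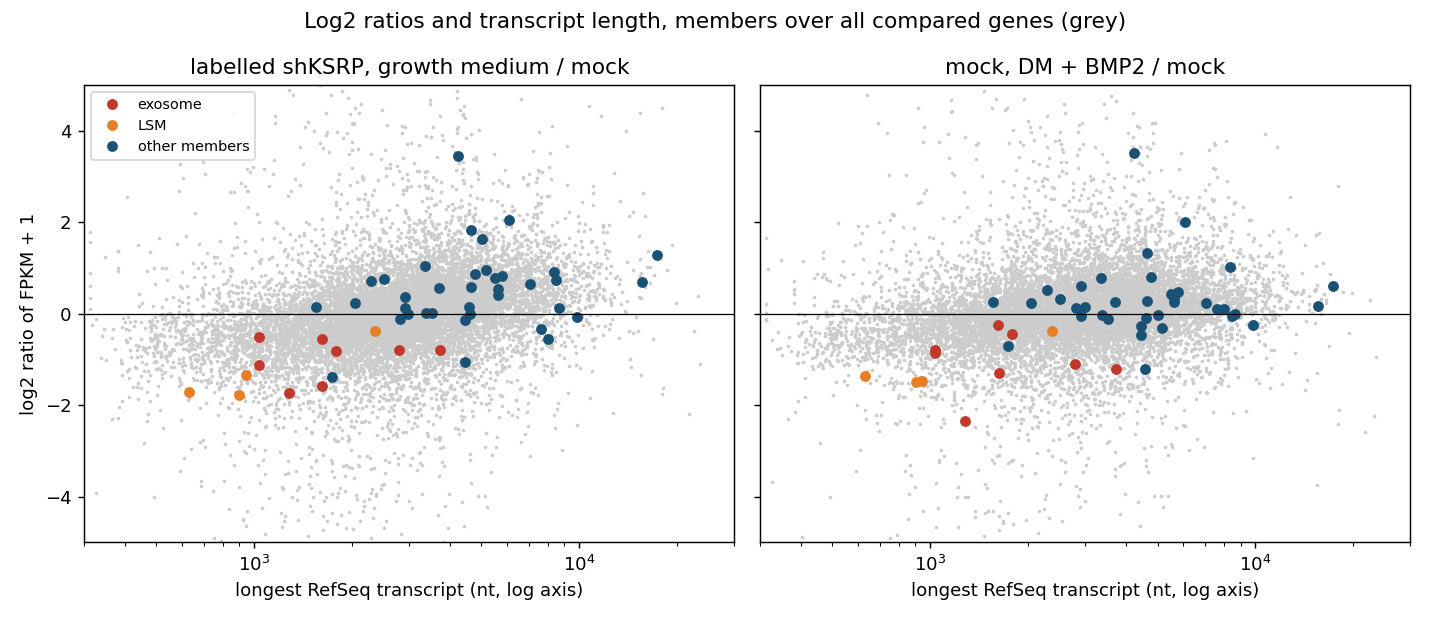
Log2 ratio of FPKM + 1 to mock (vertical axis, drawn from -5 to 5) against the longest RefSeq transcript in nt (log axis) for all compared genes (grey), exosome (red), LSM (orange) and other members (dark blue). Grey points drift upwards with length in both panels, and all exosome and LSM points lie below 0.

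Cell cycle genes moved with the exosome and LSM genes. Of 10 proliferation genes, 9 were called lower under the shKSRP label (90%, against 12.9% of all genes). In the BMP2 library 10 were (100%, against 8.95%). None was at 0, and their summed level was 1184 FPKM in mock, 319.7 and 362. Pcna, the sliding clamp of DNA replication, read 422, 117 and 145 FPKM. The part of proliferation in the exosome and LSM values was not tested.

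In the decapping group the other 7 genes did not share the LSM pattern. All 7 had ratios above 0 in the library labelled shKSRP, with a median of 0.59, and 5 of 7 in the BMP2 library, with a median of 0.27. With the fixed-length value these counts became 6 and 5 of 7. With the length trend removed they were 5 and 5, with medians of 0.31 and 0.07, and with both 4 and 4, with medians of 0.06 and 0.12. Edc3, an enhancer of decapping, was called higher in the library labelled shKSRP, with fragments on RefSeq transcripts alone. It read 4.36 ± 0.32 FPKM in mock, 10.1 ± 0.42 under the shKSRP label and 8.25 ± 0.40 in the BMP2 library. Mock was the lowest library by far, and the ratios were 1.04 and 0.79. The call is at its limit, and removing the length trend gave 0.95.

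Ddx6, the RNA helicase that couples deadenylation and microRNA repression to decapping, gave the largest ratios of the group. It read 6.49 ± 0.32 FPKM in mock, 30.1 ± 0.66 under the shKSRP label and 29.0 ± 0.66 in the BMP2 library, ratios of 2.05 and 2.00. In mock, an assembled transcript of 4084 nt at 23.1 FPKM covers 4082 nt of the exons of Ddx6 (chr9:44412975-44448814 in mm9), is drawn on the opposite strand and carries no gene. In the library labelled shKSRP, one of 4513 nt at 12.3 FPKM does the same with no strand given. With these fragments added, the fixed-length values were 22.0, 39.1 and 28.8 FPKM and the ratios 0.80 and 0.38. Whether they come from Ddx6 or from an antisense RNA cannot be told apart without strand.

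The remaining decapping and 5′ genes were not called against mock. Xrn2, the 5′ exonuclease of the nucleus, was the most abundant non-LSM gene of the group at 41.3 ± 0.89, 41.9 ± 0.98 and 40.6 ± 0.89 FPKM. Its cytoplasmic relative Xrn1 read 3.42 ± 0.19, 6.57 ± 0.26 and 4.98 ± 0.26, all of it on assembled transcripts, with ratios of 0.78 and 0.44 and a fixed-length ratio of 1.00 in the library labelled shKSRP. Xrn1 made up 7.63% of the summed Xrn1 and Xrn2 level in mock, 13.5% under the shKSRP label and 10.9% in the BMP2 library. Dcp2, the decapping enzyme, stayed near 2 FPKM with ratios of 0.12 and -0.02. Its partner Dcp1a and the scaffold Edc4 had ratios of 0.41 and 0.59 in the library labelled shKSRP and 0.24 and 0.27 in the BMP2 library.

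Among the genes that make microRNAs, Tarbp2 was lower in the library labelled shKSRP under every alternative. Tarbp2 is the double-stranded RNA-binding partner of Dicer1, on chr15:102348677-102354107 in mm9, with 9 exons. It read 57.5 ± 1.49 FPKM in mock, 21.3 ± 0.87 under the shKSRP label and 34.6 ± 1.17 in the BMP2 library, all on RefSeq transcripts. The 3 libraries did not overlap, with mock highest and the library labelled shKSRP lowest at 37.0% of mock. The ratio there was -1.39 and stayed called in every alternative tried, from -1.43 to -1.07. In the BMP2 library it was -0.72. Prkra, the related partner of Dicer1, did not share this, at 23.6 ± 1.02, 26.2 ± 1.02 and 28.4 ± 1.33 FPKM. Dicer1 read 5.55 ± 0.20, 5.18 ± 0.19 and 4.53 ± 0.19, ratios of -0.08 and -0.24.

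Dgcr8 and Drosha together form the core of the microprocessor. Dgcr8 (chr16:18254058-18289261 in mm9, minus strand) was listed at 0 in mock, at 9.85 ± 0.37 FPKM under the shKSRP label and at 10.4 ± 0.41 in the BMP2 library. It shares a locus with Trmt2a, a tRNA methyltransferase gene on overlapping exons, which read 21.4 ± 0.61, 12.1 ± 0.45 and 14.4 ± 0.52. Trmt2a was highest where Dgcr8 was listed at 0. A listing at 0 can be a failed division of reads at a shared locus, so no fold is given for Dgcr8, although it passes the call in both comparisons.

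Drosha, the nuclease (chr15:12754570-12865046 in mm9, 35 exons), read 29.1 ± 1.85 FPKM in mock, 32.5 ± 1.22 under the shKSRP label and 11.9 ± 0.41 in the BMP2 library. By this value it was called lower in the BMP2 library, at -1.22. In mock 18.8 FPKM lay on a transcript of 632 nt, and in the library labelled shKSRP 12.5 on one of 1078 nt, both at the 3′ end of the gene. The BMP2 library had no such transcript. Over the fixed length the values were 12.9 ± 0.46, 22.9 ± 0.58 and 11.9 ± 0.41 FPKM, ratios of 0.78 and -0.10. The library labelled shKSRP was highest and the BMP2 library lowest by either value, and over the fixed length no call was left.

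The DEAD-box helicases Ddx5 and Ddx17 assist the microprocessor and were its most abundant members. Ddx5 read 323 ± 2.89 FPKM in mock, 328 ± 2.42 under the shKSRP label and 299 ± 2.60 in the BMP2 library, and was the highest of all 49 genes in each. Its ratios of 0.02 and -0.11 became 0.33 and 0.22 with the fixed-length value. Ddx17 read 52.6 ± 1.03, 96.7 ± 1.31 and 92.8 ± 1.35, ratios of 0.86 and 0.81. Its share of the summed Ddx5 and Ddx17 level was 14.0% in mock, 22.7% under the shKSRP label and 23.7% in the BMP2 library, and 13.5%, 19.7% and 19.1% by the fixed-length value. Xpo5, the exporter of hairpins, read 13.2 ± 0.48, 19.9 ± 0.56 and 15.9 ± 0.52 FPKM. In the BMP2 library all of it lay on assembled transcripts of 4962 and 6099 nt, where RefSeq has 3709 nt. Its fixed-length value there is therefore larger than this sum.

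Argonaute proteins hold the microRNA and GW182 proteins link them to deadenylation. All 5 of these genes were low, from 0.88 to 12.4 FPKM over the 3 libraries. Tnrc6b, a GW182 gene on chr15:80541743-80771516 in mm9, was the only one called. It read 1.94 ± 0.10 FPKM in mock, 6.18 ± 0.19 under the shKSRP label and 3.50 ± 0.13 in the BMP2 library, ratios of 1.29 and 0.61. The libraries did not overlap and mock was lowest. The fixed-length ratio was 1.16 in the library labelled shKSRP. With the length trend removed it was 0.59, and Tnrc6b has the longest transcript of all members at 17333 nt. Tnrc6a read 7.10 ± 0.28, 12.4 ± 0.48 and 6.78 ± 0.24, and its ratio of 0.72 in the library labelled shKSRP was 0.18 over the fixed length.

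Ago2, the Argonaute that can slice its target, read 6.82 ± 0.21 FPKM in mock, 4.29 ± 0.16 under the shKSRP label and 7.37 ± 0.18 in the BMP2 library. Its RefSeq transcripts were at 0 in all 3, and assembled transcripts of 13614 to 13811 nt held the fragments where RefSeq has 8031 nt. In the library labelled shKSRP a further unspliced transcript of 11185 nt at 6.78 FPKM covers its 3′ exons, with 5392 nt on RefSeq exons. With that added, the fixed-length values were 11.7, 16.8 and 12.7, so the ratio there went from -0.56 to 0.49. Ago1 read 5.25 ± 0.26, 8.83 ± 0.30 and 6.39 ± 0.27 and Ago3 1.37 ± 0.24, 0.88 ± 0.07 and 1.52 ± 0.10. By the fixed-length value, Ago2 made up 71.6% of the 3 Argonaute genes in mock, 62.6% under the shKSRP label and 57.3% in the BMP2 library. The same value put Ago3 at a ratio of 1.37 in the BMP2 library, though its summed FPKM there was close to mock. Its fragments there lay on assembled transcripts of 14530 to 16209 nt, where RefSeq has 7635 nt. In mock they lay on transcripts of 1324 to 7635 nt. Ago3 made up 3.36% of the 3 genes in mock and 13.6% in the BMP2 library by this value, so the Ago2 share depends on it.

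The CCR4–NOT complex, which does most of the trimming of poly(A) tails, differed little. Its 7 members had median ratios of 0.22 in both comparisons, and 5 of 7 and 6 of 7 were above 0. Cnot1, the scaffold, read 22.8 FPKM in mock with an interval of ± 45.1, 44.0 ± 0.84 under the shKSRP label and 47.2 ± 1.05 in the BMP2 library. The call in the BMP2 library, at 1.02, lies well inside that interval, and over the fixed length the ratios were 0.35 and 0.06. Cnot7 and Cnot8, the paralogous CAF1 nucleases, read 29.6 ± 1.08 and 36.3 ± 1.09 FPKM in mock, with ratios from -0.01 to 0.22. Cnot7 made up 44.9% of their sum in mock, 40.9% under the shKSRP label and 43.5% in the BMP2 library. By the fixed-length value it was 40.1%, 41.7% and 40.4%, so the library labelled shKSRP went from lowest to highest. Cnot2, Cnot3, Cnot4 and Cnot6 had ratios from -0.11 to 0.76 and none was called.

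The Pan2–Pan3 pair, which starts the trimming, gave opposite calls that rest on the assembly. Pan2, the nuclease, read 9.31 ± 0.77 FPKM in mock, 3.93 ± 0.28 under the shKSRP label and 6.48 ± 0.52 in the BMP2 library, a ratio of -1.06 in the first comparison. In mock 7.65 FPKM lay on a transcript of 1163 nt, and the fixed-length values of 3.67, 3.91 and 4.58 gave ratios of 0.073 and 0.26. Pan3, its adaptor, read 1.89 ± 0.20, 9.34 ± 0.47 and 6.22 ± 0.39, ratios of 1.84 and 1.32. Transcripts with no gene, drawn on the opposite strand, cover its 3′ exons in mock at 11.5 FPKM and in the BMP2 library at 16.8 FPKM. With them the values were 8.97, 7.57 and 12.2, ratios of -0.22 and 0.41. By the fixed-length value neither gene was called.

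Btg1 and Tob1 are antiproliferative proteins that bind the CCR4–NOT complex. Btg1 (chr10:96079635-96085445 in mm9) read 44.0 ± 0.74 FPKM in mock, 137 ± 2.60 under the shKSRP label and 43.4 ± 0.75 in the BMP2 library. Only the library labelled shKSRP stood apart, with a ratio of 1.62. Of the 137, 125 lay on an assembled transcript of 1314 nt where RefSeq has 5008 nt. Over the fixed length the 3 libraries read 44.0, 45.5 and 43.4, so the number of fragments was nearly the same and the call ended. What differed was the transcript that held them. Tob1 read 42.0 ± 1.4, 69.8 ± 1.77 and 59.99 ± 1.71 FPKM, ratios of 0.72 and 0.51 that the fixed-length value left at 0.69 and 0.53. Parn, a nuclease that removes poly(A) tails on its own, read 11.8 ± 0.51, 15.6 ± 0.56 and 18.4 ± 0.94, with ratios of 0.37 and 0.60. In the BMP2 library part of it lay on assembled transcripts of 1639 and 2218 nt, where RefSeq has 2902 nt. The fixed-length value of Parn there is therefore smaller than this sum.

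**Figure D4:**
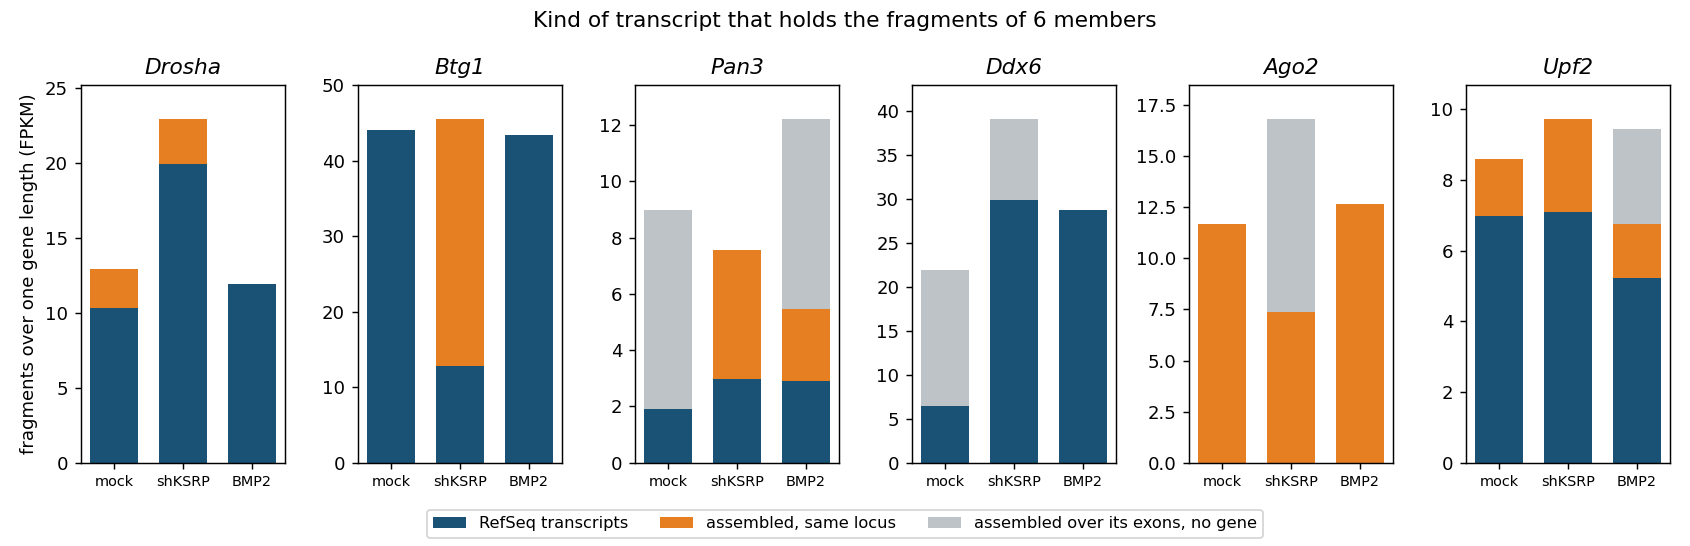
Fragments over one gene length (FPKM, vertical axes from 0, each panel with its own scale) in the 3 libraries for 6 members, stacked by the kind of transcript that holds them. In Btg1 the totals of 44.0, 45.5 and 43.4 are alike while the orange part, assembled transcripts of the same locus, is present in the library labelled shKSRP alone.

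Nonsense-mediated decay removes mRNAs with an early stop codon. Its 5 genes gave no call against mock in either comparison. Upf1, the helicase, read 17.8 ± 0.49 FPKM in mock, 17.7 ± 0.52 under the shKSRP label and 16.5 ± 0.63 in the BMP2 library. Smg5, an adaptor that recruits decay enzymes, was the most abundant, at 26.0 ± 0.61, 23.7 ± 0.55 and 21.4 ± 0.67. Their ratios lay between -0.27 and -0.01. Smg6, the endonuclease, read 5.31 ± 0.24, 10.2 ± 0.32 and 7.82 ± 0.29 on RefSeq transcripts alone, ratios of 0.82 and 0.48. Smg1, the kinase that phosphorylates Upf1, read 3.78 ± 0.12, 6.66 ± 0.16 and 4.37 ± 0.13 at a shared locus, ratios of 0.68 and 0.17. Upf2, the adaptor between Upf1 and the exon junction complex, read 8.59 ± 0.37, 17.5 ± 0.89 and 6.76 ± 0.35. Over the fixed length Upf2 read 8.59, 9.71 and 9.43 FPKM, and its ratio of 0.95 in the library labelled shKSRP became 0.16.

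Between the library labelled shKSRP and the BMP2 library, 3 members were called higher (6.12%, against 6.07% of all genes) and none lower (against 8.66%). They were Drosha at 1.37, Btg1 at 1.64 and Upf2 at 1.25. By the fixed-length value 0 of the 3 calls was left and no member was lower, beside 5.24% and 7.88% of all genes. The exosome median was 0.01 in this comparison and 4 of its 8 genes lay on each side of 0. Exosc8 had the largest exosome ratio, 0.61, and Exosc3 stood at -0.33.

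The plot of members with the gene value built in 2 ways shows which calls both values make. Both count assembled transcripts, so agreement does not free a call from the assembly. With RefSeq transcripts only, calls made by both ended for Tnrc6b, Exosc3 and Exosc8 in the library labelled shKSRP. In the BMP2 library those of Lsm4 and Dis3 ended. Of the 8 lower calls in the library labelled shKSRP, 7 were also made by the fixed-length value, and of the 8 in the BMP2 library, 6 were. Of the higher calls, 3 of 6 and 1 of 4 were, and that 1 is Dgcr8. The fixed-length value called 9.76% of all genes higher and 11.2% lower in the library labelled shKSRP, and 7.67% and 7.27% in the BMP2 library. The members lower under both values, and with the length trend removed from each, were Tarbp2, Lsm2, Lsm3, Exosc2 and Exosc8 in the library labelled shKSRP. In the BMP2 library they were Lsm2, Lsm4, Exosc2, Exosc8 and Dis3. Of all genes, 11.2% and 8.9% were called lower with the trend removed from the summed FPKM, and 9.29% and 7.07% with it removed from the fixed-length value.

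**Figure D5:**
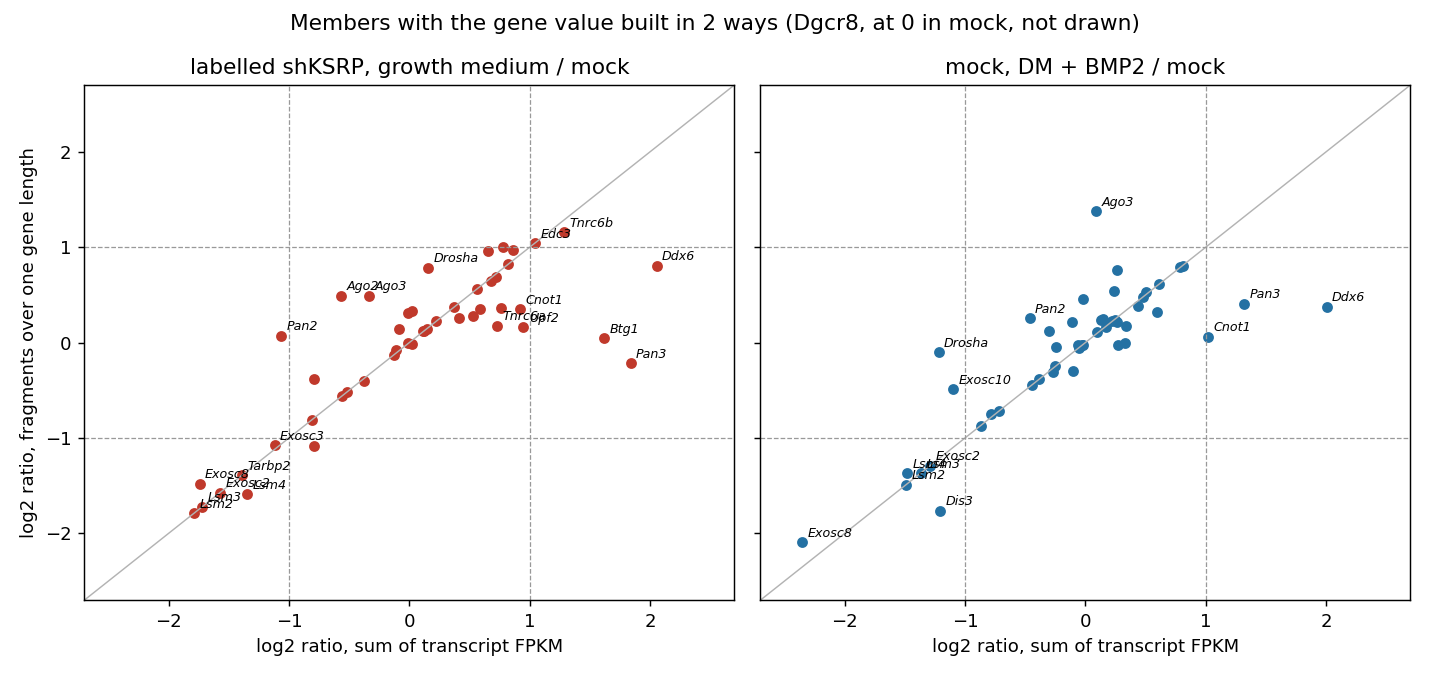
Log2 ratio to mock from fragments over one gene length (vertical axis) against that from the sum of transcript FPKM (horizontal axis) for 48 members, with dashed lines at -1 and 1 and the diagonal of equal values. All exosome and LSM points lie below 0 on both axes. Ddx6, Pan3, Btg1, Pan2 and Drosha are among those away from the diagonal, and in the BMP2 library so are Exosc10 and Dis3.

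A further 43 genes of the same machinery that are not members were listed. Of these, 42 matched a symbol, 39 were compared, and Magoh is not analysed here. In the library labelled shKSRP 4 were called higher (10.3%, against 11% of all genes) and 8 lower (20.5%, against 12.9%). In the BMP2 library 3 were called higher (7.69%, against 9.21%) and 10 lower (25.6%, against 8.95%). By the fixed-length value 40 were compared. In the library labelled shKSRP it called 1 higher (2.5%, against 9.76%) and 8 lower (20%, against 11.2%). In the BMP2 library it called 3 higher (7.5%, against 7.67%) and 4 lower (10%, against 7.27%). Lsm5 and Lsm7, further subunits of the LSM ring, read 149 and 201 FPKM in mock, 42.4 and 60.6 under the shKSRP label and 42.7 and 88.0 in the BMP2 library. Their ratios were -1.79 and -1.71 in the first and -1.78 and -1.18 in the second. Lsm6 stood at -0.95 and -1.36. By summed FPKM, LSM genes outside the member list were thus lower as well. Their ratios by the fixed-length value or with the length trend removed are not given here. The same holds for Smg9, Rbm8a and Ran below.

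Among exosome partners, Mtrex, the helicase that feeds RNA to the nuclear exosome, read 45.7 ± 1.56, 19.3 ± 0.59 and 17.1 ± 0.58 FPKM, but its ratios of -1.20 and -1.37 became -0.02 and -0.66 over the fixed length. Exosc6, a ring subunit, was listed at 35.1 FPKM in mock and at 0 in both other libraries, at a locus shared with Aars. No fold is given for it. Btg3 was listed at 7.94, 0 and 28.7, also at a shared locus. Of nonsense-mediated decay, Smg9 had ratios of -1.55 and -1.15 and the exon junction gene Rbm8a -1.50 and -1.06. Tnrc6c, the remaining GW182 gene, had 1.51 and 0.72, and 0.79 and 0.28 over the fixed length. Ran, the GTPase that Xpo5 needs, stood at -0.89 and -1.78, and Pabpc1, the poly(A) tail-binding protein, at -0.45 and -1.31. The fixed-length ratios of Pabpc1 were 0.40 and -0.45, without a call.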

How the data were processed

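Polyadenylated RNA of C2C12 cells was sequenced in 3 libraries, 1 per group. The authors deposited a Cufflinks transcript file per library, which gives FPKM with a 95% interval, per the file headers. The files also hold a score per transcript, deposited by the authors and not used here. Per the submitters' processing notes, the tools were Cufflinks 1.3.0, TopHat 1.4.1, Bowtie 0.12.7 and CASAVA 1.8, on mm9. The sources used here give neither their settings nor strandedness. No label names molecular identifiers, and intervals cover counting and assignment error only.

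Of 28221 RefSeq accessions, 27562 were named through the GRCm38.p6 RefSeq table, 166 from a GENCODE table and 216 from the files' own names, and 277 kept the accession. Gene FPKM was the sum of RefSeq transcripts and of assembled transcripts of the same Cufflinks locus, by exon overlap where genes share a locus. Genes with 1 FPKM or more in at least 1 library and a RefSeq transcript of 300 nt or more were compared (11463, with 11243 set aside) as log2 ratios with a pseudocount of 1. A log2 ratio of 1 in size is a fixed rule and no test. For the fixed-length value, fragments (FPKM times length), with those of gene-less assembled transcripts that overlap the exons by 100 nt or more, were divided by the longest RefSeq transcript. The length trend was a lowess curve with a fraction of 0.3. The computation of ratios and of the length trend was checked on simulated data. Tools were Python 3.11.15, pandas 2.3.3, numpy 2.4.6, scipy 1.17.1 and statsmodels 0.14.6.

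Values in every library are given for members called in any comparison, listed at 0 or most abundant in their complex, and for groups of 5 or fewer. The further genes given with values were called against mock. The rule was to give at most 10 of them, those with the largest ratios, and more than 10 are given. Other values named were chosen after they were seen. The members, the lists and these rules were chosen with earlier results of these data known.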

Additional observations from a re-analysis of the deposited data

Results flagged for a closer look

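For 3 members there was a signal outside their gene value, on assembled transcripts that carry no gene but cover the member's exons, above the level of such transcripts in mock. For Ago2 it was 6.78 FPKM in the library labelled shKSRP, on 1 unspliced transcript, and 0 in mock. For Pan3 it was 16.8 FPKM in the BMP2 library, on 1 spliced transcript drawn on the opposite strand, and 11.5 in mock. For Upf2 it was 5.79 FPKM in the BMP2 library, on 1 unspliced transcript, and 0 in mock. Whether these fragments belong to the member or to another RNA was not tested.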

How the results depend on the processing

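Of 29 calls of single members, 9 held under all the alternatives that gave a value, namely Dgcr8, Exosc2 and Lsm2 against mock in both libraries, Tarbp2 and Lsm3 in the library labelled shKSRP, and Exosc8 in the BMP2 library. Dgcr8 gave a value under 12 of the 14 alternatives and Lsm2 under 13. Neither was counted with shared loci left out, nor Dgcr8 where genes had to be above 0 in all 3 libraries. Under the 12, Dgcr8 was at 0 in mock on its only transcript, so its listing at 0 was not put to a test. Of 84 counts of calls under 14 alternatives, 71 stayed within 1.5 times the main count. Of the 14, 2 were chosen after seeing the data: the fixed-length value with gene-less transcripts added, and the same with the length trend removed. Against mock, scaling FPKM to the same sum shifted ratios by 0.35 and 0.26 on the log2 scale and gave 16 members higher in the library labelled shKSRP (19.1% of all genes) and 5 lower in the BMP2 library (6.82%). The fixed-length value with the length trend removed gave 1 higher in the library labelled shKSRP (8.60%), and 2 higher (7.01%) and 5 lower (7.07%) in the BMP2 library. A pseudocount of 5 gave 2 higher in the BMP2 library (4.71% of all genes), and so did the fixed-length value (7.67%). Between the library labelled shKSRP and the BMP2 library, the higher calls went to 0 under the 3 settings with a fixed length (5.21% to 5.92%). The lower calls there went to 3 if RefSeq transcripts only, or just the most abundant of them, were counted (10.3% and 10.2%), and to 1 with the fixed length and the trend removed (7.45%).

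Some ratios of single members changed sign. With RefSeq transcripts only, or the most abundant one alone, Btg1 gave -1.71 in the library labelled shKSRP against mock. Under the same settings it gave -1.69 against the BMP2 library, and Drosha gave 0.20 in the BMP2 library against mock. Cnot1 in the BMP2 library against mock gave -0.87 with RefSeq transcripts only and -0.55 with the most abundant one alone. With the fixed length, with or without gene-less transcripts, Pan2 gave 0.073, and Pan3 -0.22 with them, both in the library labelled shKSRP. With the length trend removed as well, Pan3 gave -0.51, Btg1 -0.28 against mock and -0.064 against the BMP2 library, Cnot1 -0.22 in the BMP2 library, and Upf2 -0.10 between the library labelled shKSRP and the BMP2 library. These changes follow from which transcripts are counted and over what length. No paired analysis was possible because each group holds 1 library, so no number pairs samples and no library can be left out. The median half-width of a member's interval was 3.80% to 3.98% of its FPKM.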
